A study of Mus musculus with 16 samples.

Results

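The genes of 10 proteins that bring fatty acids into liver cells or hold them in the cytosol were followed through the 4 groups of a mouse liver RNA-seq study. The genes Cd36, Slc27a2, Slc27a4, Lpl, Vldlr, Fabp1, Fabp2, Fabp4, Fabp5 and Dbi were taken by symbol from the table of counts, which gave 10 of its 52143 genes, each symbol matching 1 Ensembl gene. The livers came from C57BL6/J male mice that were 6 weeks old at the start and were kept for 12 weeks either on chow or on a diet high in fat (HFD). The design crossed the diets with a treatment given under the skin every 2 weeks, either a GalNAc-conjugated siRNA against FGFR4 at 3 mg/kg or sterile saline. The groups were therefore Chow (chow, saline), Chow/FGFR4 KD (chow, siRNA), HFD (HFD, saline) and HFD/FGFR4 KD (HFD, siRNA), with 4 libraries in each and 16 in all. The knockdown (KD) was compared with saline and not with a control siRNA, so the response to FGFR4 loss and the response to any GalNAc-siRNA cannot be told apart. GalNAc is a sugar that the asialoglycoprotein receptor of hepatocytes takes up, so the siRNA was aimed at hepatocytes, while the RNA came from whole liver. In whole liver, fewer cells of a type and less RNA per cell cannot be told apart.

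Long-chain fatty acids reach the liver as free acids bound to albumin and as triglyceride in lipoprotein remnants. CD36 and the fatty acid transport proteins of the SLC27 family help them across or at the plasma membrane, the latter also by joining them to coenzyme A, and lipoprotein lipase and the VLDL receptor act on triglyceride-rich particles. Inside the cell, small fatty acid binding proteins (FABPs) carry the acids and DBI, the acyl-CoA binding protein, carries their coenzyme A esters. Several of these genes are known targets of the peroxisome proliferator-activated receptors (PPARs), which bind as pairs with RXR to a repeat of the half-site AGGTCA spaced by one base.

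That repeat, AGGTCANAGGTCA, was searched on both strands with up to 2 mismatches in the 250 bases before each RefSeq transcript start, beside the half-site AGGTCA and the box TATAAA without mismatches. RefSeq windows on GRCm38.p6 were found for 7 of the 10 genes, in 9 windows. The windows of Slc27a4 and Dbi and the second window of Vldlr held no match to the repeat and are not shown. The 5 windows below belong to the genes on which the diet and knockdown results turn and for which a window was found, and capitals mark a match to the repeat. Cd36 (chr5:17835897-17836146, minus strand) and Fabp1 (chr6:71199629-71199878, plus strand) held such a match, and Fabp2 (chr3:122894822-122895071, plus strand), Slc27a2 (chr2:126552774-126553023, plus strand) and the first of the Vldlr windows (chr19:27216234-27216483, plus strand) held none.
Cd36: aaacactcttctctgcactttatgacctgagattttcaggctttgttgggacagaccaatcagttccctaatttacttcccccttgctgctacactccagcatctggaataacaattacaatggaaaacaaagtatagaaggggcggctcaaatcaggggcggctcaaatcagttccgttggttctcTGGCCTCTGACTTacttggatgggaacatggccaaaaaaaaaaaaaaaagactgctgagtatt
Fabp1: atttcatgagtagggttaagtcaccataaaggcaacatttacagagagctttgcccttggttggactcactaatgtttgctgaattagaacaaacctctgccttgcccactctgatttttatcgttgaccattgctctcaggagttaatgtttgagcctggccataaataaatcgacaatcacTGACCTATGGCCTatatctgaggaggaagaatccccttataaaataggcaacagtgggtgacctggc
Fabp2: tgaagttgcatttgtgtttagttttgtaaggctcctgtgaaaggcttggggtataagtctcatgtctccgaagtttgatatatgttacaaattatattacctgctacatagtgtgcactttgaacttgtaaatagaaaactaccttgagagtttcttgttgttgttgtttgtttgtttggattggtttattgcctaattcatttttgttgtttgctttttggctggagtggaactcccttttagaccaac
Slc27a2: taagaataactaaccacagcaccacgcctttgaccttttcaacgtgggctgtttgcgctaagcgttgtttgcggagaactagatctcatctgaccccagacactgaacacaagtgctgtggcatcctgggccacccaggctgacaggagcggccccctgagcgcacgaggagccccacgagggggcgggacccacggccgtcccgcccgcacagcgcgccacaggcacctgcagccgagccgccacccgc
Vldlr: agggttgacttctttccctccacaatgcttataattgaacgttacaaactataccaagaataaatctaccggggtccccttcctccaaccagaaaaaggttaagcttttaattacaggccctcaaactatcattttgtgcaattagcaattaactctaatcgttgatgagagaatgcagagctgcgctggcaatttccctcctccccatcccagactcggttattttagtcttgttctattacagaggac
The Fabp1 match differed from the repeat at 1 base and lay on the minus strand at -67 to -55 from the start, and the Cd36 match differed at 2 bases and lay on the minus strand at -63 to -51. Across all 32851 RefSeq promoter windows of this length, 3.24% held a match by the same rule. The half-site alone was found in the windows of Cd36 (-228 to -223), Slc27a2 (-220 to -215) and Fabp1 (-67 to -62, inside the repeat, and -9 to -4), and in 14.0% of all windows. TATAAA occurred at -30 to -25 of Fabp1 and in 12.4% of all windows. These matches are descriptions of the letters, and no binding was measured. The Cd36 window lay inside the extent of the GENCODE gene, which has further start sites, and the Slc27a2 and Fabp1 windows overlapped their GENCODE genes.

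Each library held between 3445949 and 5976449 estimated counts, and Fgfr4 itself fell from 29.7 ± 4.57 CPM (SD, n = 4) to 4.78 ± 1.60 on chow and from 25.7 ± 4.25 to 3.74 ± 1.35 on HFD, with no overlap between treated and saline libraries. Values below are CPM, that is counts set to a common library size with TMM factors, and changes are log2 differences from limma-voom over 11324 genes. A gene counts as called where p was under 0.05 and the p adjusted by Benjamini-Hochberg was under 0.25. All 10 genes were among those tested. A change is followed by its standard error or 95% interval, and every group held 4 libraries. Hepatocyte markers made up 52778 to 73830 CPM in every library, whereas the adipocyte genes Adipoq and Plin1 reached at most 4 and 2 counts. Library 1 of HFD/FGFR4 KD was the lowest of its group for Cd36, Fabp2, Fabp4, Vldlr and Dbi. The changes of Cd36, Fabp2, Fabp4 and Vldlr on HFD are also given without it, and so is that of Dbi for knockdown on HFD. Gm42418, a predicted gene, took 22.3% of the counts of that library, against 13.7% to 16.2% in the rest of its group. Chi-square per degree of freedom, higher where 2 libraries agree less, was 48.0 to 72.6 between library 1 and the rest. Among the rest it was 7.59 to 16.6. Gm42418 took 13.4% to 22.7% of counts in Chow, 14.8% to 20.6% in Chow/FGFR4 KD and 11.1% to 15.6% in HFD. What these shares reflect was not tested. The circadian clock genes Dbp and Arntl, chosen after their values were seen, differed between groups as well. Dbp was at 0.710 to 8.35 CPM in Chow, 0.397 to 1.60 in Chow/FGFR4 KD, 21.2 to 77.9 in HFD and 13.7 to 34.5 in HFD/FGFR4 KD, and Arntl at 15.1 to 28.4, 19.6 to 25.4, 1.41 to 9.08 and 9.07 to 17.1 CPM, and the part of sampling time in the results below was not tested.

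The genes spanned a wide range of levels when set per kb of transcript. The labels name a KAPA mRNA HyperPrep library kit while the paper's methods name HTG EdgeSeq, a probe-based assay in which counts would not scale with transcript length, so the order of genes per kb holds only for libraries of whole mRNA. In the Chow group Fabp1, the liver form of the FABPs, was highest at 4010.2 ± 395 CPM per kb (SD), followed by Dbi at 936 ± 83.7 and by Slc27a2, which activates very long-chain as well as long-chain acids, at 346 ± 37.2. These first 3 did not overlap with each other or with any other member in any group. Fabp2, the intestinal form, came next at 58.0 ± 31.6 CPM per kb. Fabp5 at 18.4 ± 8.49, Cd36 at 10.5 ± 6.75 and Slc27a4 at 7.21 ± 1.39 overlapped in range. Fabp4, the form known from adipocytes and macrophages, stood at 3.91 ± 0.476 and Lpl at 3.202 ± 1.08 CPM per kb, also with overlap. Vldlr was the lowest at 0.188 ± 0.103 CPM per kb, from 3 to 12 counts a library. On HFD the order of the middle genes changed: Cd36 stood at 51.1 ± 17.2, Fabp4 at 13.9 ± 5.55 and Fabp5 at 4.97 ± 0.635 CPM per kb, so that Fabp5 went from above both to below both in the group means. Fabp1 alone took 0.173% to 0.259% of all counts in Chow and 0.261% to 0.327% in HFD. These are shares of raw library totals, without TMM factors. With TMM factors Fabp1 overlapped between the diets, at 2037 to 2519 CPM in Chow and 2413 to 2856 CPM in HFD, and was not called.

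**Figure D1:**
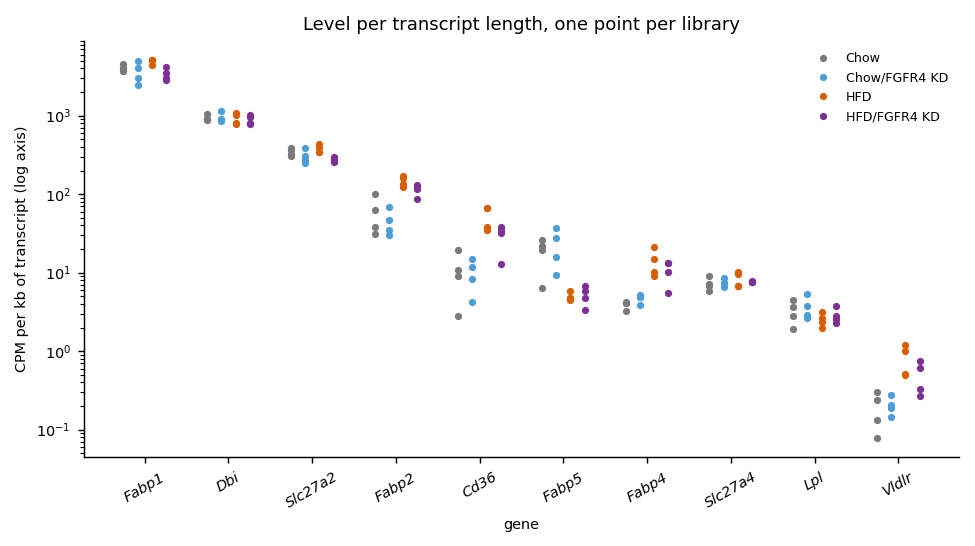
Level of each gene in CPM per kb of its longest coding transcript (vertical log axis), 1 point per library, coloured by group, with genes ordered by their mean over the 16 libraries. Fabp1, Dbi and Slc27a2 sit apart at the top, Vldlr at the bottom, and Cd36, Fabp4 and Fabp5 change places between the chow and HFD libraries.

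The first comparison asked how the HFD acted on these genes in saline-injected mice. Cd36, Fabp2, Fabp4 and Vldlr were higher on HFD and Fabp5 was lower, while Slc27a2, Slc27a4, Lpl, Fabp1 and Dbi did not pass the test. That is 4 of 10 called higher, against 13.3% of all genes tested, and 1 of 10 called lower, against 12.7%, or 5 of 10 in either direction against 26%. The median log2 change of the 10 genes was 0.25, beside 0.0070 for all genes tested. The groups did not overlap for 5 of the 10 genes, against 16.1% of all genes.

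Cd36, a scavenger receptor that also takes up fatty acids, showed the largest rise of the 10 genes. It was at 36.5, 9.65, 65.3 and 30.8 CPM in Chow libraries 1 to 4 and at 224, 118, 225 and 128 CPM in HFD libraries 1 to 4. Every HFD library lay above every Chow library, although the Chow libraries themselves ranged widely. The log2 change was 2.46 ± 0.48 (SE), a 5.50-fold rise, with an adjusted p of 0.00532 in limma-voom. Vldlr, a receptor for triglyceride-rich lipoproteins, was at 0.615, 1.04, 2.43 and 1.89 CPM in Chow and 9.65, 3.92, 8.13 and 4.04 CPM in HFD, again without overlap. It rose by 2.12 ± 0.49 (SE) on the log2 scale (limma-voom adjusted p = 0.0137), from 3 to 12 counts a library in Chow to 20 to 67 in HFD, so its value carries more counting error than the others.

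The binding proteins moved in different directions. Fabp2 was at 36.3, 29.7, 97.0 and 61.1 CPM in Chow and 163, 131, 154 and 121 CPM in HFD, and every HFD library was above every Chow library. Its log2 change was 1.47 ± 0.28 (SE) (limma-voom adjusted p = 0.00487). Fabp4 was low in all Chow libraries, at 3.71, 2.87, 3.65 and 3.79 CPM, and reached 13.4, 9.18, 19.04 and 8.08 CPM in HFD. The log2 change of Fabp4 was 1.74 ± 0.36 (SE) (limma-voom adjusted p = 0.00763), a 3.34-fold rise. Fabp5, an epidermal and macrophage form that the liver also expresses, went the other way, from 19.1, 25.8, 6.29 and 21.3 CPM in Chow to 4.75, 4.41, 5.83 and 4.64 CPM in HFD. The lowest Chow library was close to the highest HFD library but above it. Fabp5 fell by 1.65 ± 0.50 (SE) on the log2 scale (limma-voom adjusted p = 0.0474). Of the 31-base words of Fabp5, 9.22% also occur in other genes, which the counting could split. The processed pseudogenes that share most of these words had 0 counts, and all counts of Fabp5 were whole numbers. Per kb of transcript, the ratio of Fabp4 to Fabp5 was 0.122 to 0.640 in Chow and 1.92 to 3.60 in HFD.

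**Figure D2:**
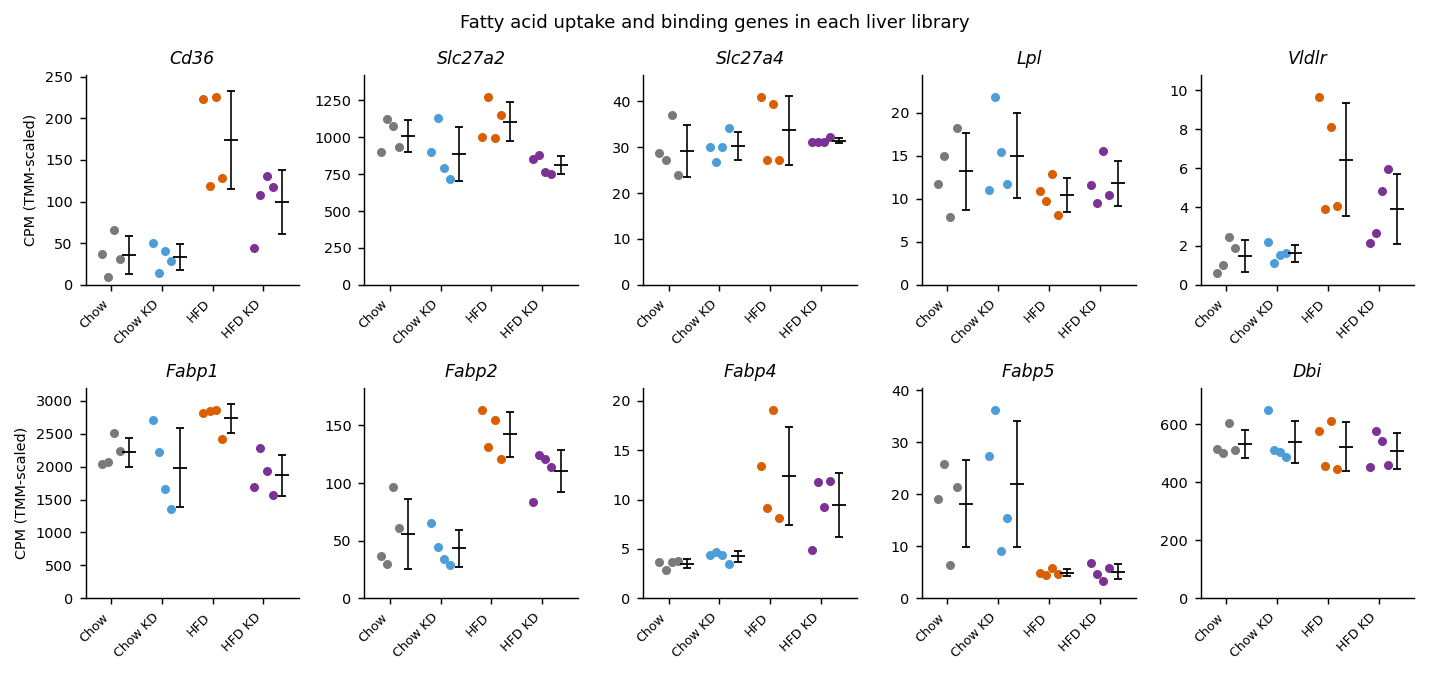
CPM of each gene in each library (vertical axes from 0), in 4 groups of 4 libraries shown as points in order of replicate number, with the group mean and SD as a bar beside them. Cd36, Fabp2, Fabp4 and Vldlr sit higher and Fabp5 lower in the HFD groups, and Cd36 of HFD/FGFR4 KD library 1, at 44.2 CPM, lies among the chow values.

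Within the HFD group the libraries formed pairs for several genes. Libraries 1 and 3 were at 224 and 225 CPM for Cd36, and libraries 2 and 4 at 118 and 128 CPM. The same libraries 1 and 3 were the higher ones for Vldlr, Slc27a4, Fabp2, Fabp4, Fabp5, Lpl and Dbi, and the lower ones for Slc27a2. For Fabp5 the gap was small, with 4.75 CPM in library 1 against 4.64 CPM in library 4. Of the members only Fabp1 did not follow the pairs. The pairs were not particular to these genes. Over 7405 genes, chi-square per degree of freedom was 11.4 between libraries 1 and 3 and 11.7 between libraries 2 and 4. For the other combinations it was 34.7 to 58.9. Summed markers of stellate cells and fibroblasts followed the same pairs, at 269 and 273 CPM in libraries 1 and 3. In libraries 2 and 4 they were at 151 and 154 CPM. Hepatocyte and cholangiocyte sums were also higher in libraries 1 and 3. Adipocyte sums were lower in libraries 1 and 3, at 21.9 and 28.8 CPM, than in libraries 2 and 4, at 33.3 and 31.5 CPM. Kupffer, endothelial and enterocyte sums did not follow the pairs. The part of these cells in the values was not tested.

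The remaining 5 genes did not pass the test for diet in saline mice. Slc27a2 had a log2 change of 0.13 (95% interval -0.14 to 0.40) and Slc27a4, which also activates long-chain acids, one of 0.20 (-0.12 to 0.51). Fabp1 had a change of 0.30 (-0.064 to 0.67) with a limma-voom adjusted p of 0.288, from 2037, 2077, 2519 and 2237 CPM in Chow to 2818, 2843, 2856 and 2413 CPM in HFD. The 3 highest HFD libraries for Fabp1 lay above all Chow libraries and HFD library 4 lay among them. Lpl, the lipase that releases fatty acids from lipoproteins and is low in adult liver, had a change of -0.24 (-0.78 to 0.30), and Dbi one of -0.036 (-0.30 to 0.22). The interval of Dbi was the narrowest of the 10, and no change larger than about 0.30 on the log2 scale lies inside it. With scaling by library totals, the median change of all genes was 0.29 in this comparison, and Slc27a2, Slc27a4 and Fabp1 passed the test as well. Relative to that median their changes were 0.12, 0.19 and 0.29. Fabp1 also passed without a filter on low genes, with a change of 0.31 (limma-voom adjusted p = 0.22), and in a fit of only the groups compared, with 0.29 (limma-voom adjusted p = 0.0944, range 0.0646 to 0.461 over the alternatives). Slc27a4 also passed without Chow library 3, with a change of 0.32.

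Markers of liver cell types moved with diet too. Of 6 hepatocyte markers 3 were called lower on HFD in saline mice and none higher. Of 8 Kupffer cell and macrophage markers 7 were called higher on HFD in saline mice, with a summed level of 48.0 to 58.2 CPM in Chow and 96.1 to 164 CPM in HFD. For 7 endothelial markers, 3 were called higher and the sums were 98.7 to 127 CPM and 108 to 128 CPM. For 6 stellate cell and fibroblast markers, 4 were called higher, with sums of 91.9 to 133 CPM and 151 to 273 CPM. The adipocyte list summed to 4.18 to 18.6 CPM in Chow and 21.9 to 33.3 CPM in HFD, and 1 of its 2 tested genes was called higher. Cfd was at 0.261 to 10.95 CPM in Chow and 10.7 to 24.4 CPM in HFD and Cidea at 0 to 2.43 and 4.04 to 13.3 CPM, with Lep at 0 in every library and Adipoq and Plin1 at or near 0. Macrophages, endothelium and adipocytes also express Cd36, Fabp4, Fabp5 and Lpl, and the part of these cells in the changes was not tested.

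The second comparison set HFD against chow in mice that received the siRNA. The same 5 genes were called in the same directions, with 4 of 10 higher against 10.1% of all genes and 1 of 10 lower against 10.1%, or 5 of 10 against 20.2% in either direction. The median log2 change of the 10 genes was 0.0075, beside -0.0088 for all genes tested. The groups did not overlap for 3 genes (Fabp2, Fabp4 and Fabp5), against 11.5% of all genes.

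Fabp2 was at 65.2, 44.8, 34.2 and 28.9 CPM in Chow/FGFR4 KD libraries 1 to 4 and 83.9, 125, 121 and 113 CPM in HFD/FGFR4 KD libraries 1 to 4. All treated HFD libraries were above all treated chow libraries, and the log2 change was 1.37 ± 0.30 (SE) (limma-voom adjusted p = 0.0214). Fabp5 was at 27.4, 36.1, 9.08 and 15.4 CPM on chow and 6.72, 4.65, 3.32 and 5.70 CPM on HFD in treated mice. It fell by 2.07 ± 0.54 (SE) on the log2 scale (limma-voom adjusted p = 0.0455), without overlap between the groups. Fabp4 went from 4.36, 4.71, 4.35 and 3.47 CPM to 4.89, 11.7, 9.21 and 11.9 CPM. Its lowest HFD library, library 1, was just above the chow range, and the log2 change was 1.04 ± 0.37 (SE) (limma-voom adjusted p = 0.13). Without HFD/FGFR4 KD library 4 the change of Fabp4 was 0.92 and missed the threshold (limma-voom adjusted p = 0.262, range 0.019 to 0.262 over the alternatives).

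Cd36 was at 50.8, 14.2, 40.3 and 28.4 CPM in Chow/FGFR4 KD and 44.2, 107, 131 and 118 CPM in HFD/FGFR4 KD. Library 1 of the HFD group fell inside the range of the chow group and the other 3 lay above it. The log2 change was 1.61 ± 0.49 (SE) (limma-voom adjusted p = 0.0819), and 1.97 without that library (limma-voom adjusted p = 0.0244, range 0.0244 to 0.198 over the alternatives). Vldlr was at 2.18, 1.14, 1.51 and 1.65 CPM and 2.17, 2.66, 4.81 and 5.96 CPM, and library 1 of HFD/FGFR4 KD again lay within the chow range. Its change of 1.11 ± 0.52 (SE) passed narrowly (limma-voom adjusted p = 0.246). It was no longer called in 10 of 18 alternatives, among them the removal of 7 of the 8 libraries one at a time (each Chow/FGFR4 KD library and HFD/FGFR4 KD libraries 2, 3 and 4), with values of 0.92 to 1.33 over all alternatives. Without library 1 of HFD/FGFR4 KD, Fabp2 and Fabp4 changed by 1.501 and 1.31. Slc27a2, Slc27a4, Fabp1, Dbi and Lpl did not pass, with log2 changes between -0.28 (Lpl) and 0.066 (Slc27a4).

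Among the markers in treated mice, 1 of 8 Kupffer cell and macrophage markers, 1 of 7 endothelial markers and 1 of 6 stellate cell and fibroblast markers were called higher on HFD, with Kupffer sums of 62.7 to 87.7 CPM on chow and 72.6 to 131 CPM on HFD. The adipocyte list summed to 1.54 to 7.30 CPM on chow and 8.78 to 18.1 CPM on HFD, and both of its tested genes were called higher. Within the list Cfd was at 0 to 3.17 CPM on chow and 3.65 to 8.19 CPM on HFD, and Cidea at 0 to 1.59 and 0 to 6.64 CPM. Adipoq reached at most 1.21 CPM on chow and 0.166 CPM on HFD, and Plin1 at most 0.605 and 0.259 CPM. Of 6 hepatocyte markers 1 was called lower, as was the 1 cholangiocyte marker tested. Their part in the changes was not tested. At an adjusted p under 0.05 only Fabp2 and Fabp5 remained called in treated mice, whereas all 5 genes did so in saline mice.

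**Figure D3:**
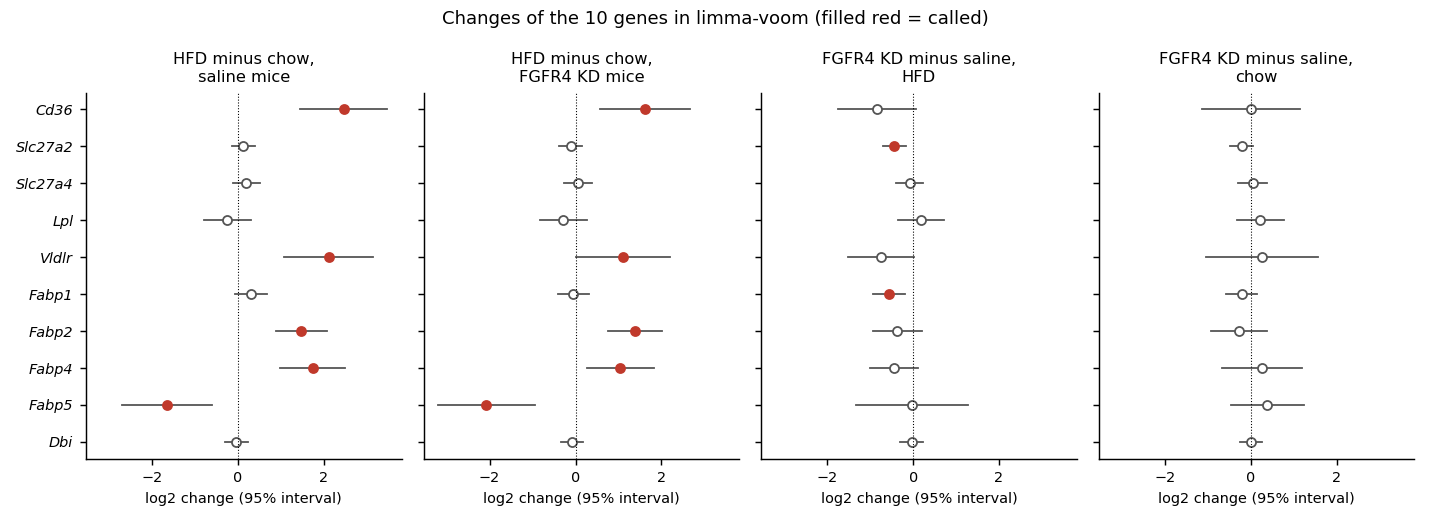
Log2 change (horizontal axis) with its 95% interval from limma-voom for the 10 genes in 4 comparisons of 4 against 4 libraries, filled red where called. Cd36, Fabp2, Fabp4, Fabp5 and Vldlr are filled in both diet comparisons, Fabp1 and Slc27a2 are filled for knockdown on HFD, and no gene is filled for knockdown on chow.

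The third comparison asked what FGFR4 knockdown did on HFD. Fabp1 and Slc27a2 were lower in HFD/FGFR4 KD than in HFD, and the other 8 genes did not pass the test. That is 2 of 10 called lower, against 1.64% of all genes, and 0 of 10 higher, against 1.5%, or 2 of 10 against 3.14% in either direction. The paper had already reported both falls from these data. The members were chosen with earlier results of these data known, which bears on this count and on the diet counts above. Fabp1 and Slc27a2 were also the 2 genes with an unadjusted p under 0.05 in limma-voom, and DESeq2 called both and edgeR 1 of them. The median log2 change of the 10 genes was -0.40, beside 0.0035 for all genes tested, and 9 of the 10 values were below 0. The 10 genes come from the same libraries and some varied together, so these values are not independent. The sign turned in 5 of 18 alternatives for Fabp5, in 4 for Dbi and in 1 for Slc27a4. The groups did not overlap for 2 genes, the same Fabp1 and Slc27a2, against 6.49% of all genes.

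Fabp1 was at 2818, 2843, 2856 and 2413 CPM in HFD libraries 1 to 4 and at 1684, 2282, 1937 and 1564 CPM in HFD/FGFR4 KD libraries 1 to 4. Every treated library was below every saline library. The fall was 0.56 ± 0.17 (SE) on the log2 scale, to 0.678 of the saline level (limma-voom adjusted p = 0.211). Slc27a2 was at 999.9, 1273, 996 and 1152 CPM in HFD and 850.4, 879.7, 766 and 749.8 CPM in HFD/FGFR4 KD, also without overlap. It fell by 0.44 ± 0.13 (SE) on the log2 scale (limma-voom adjusted p = 0.19). An exon of Slc27a2 overlaps the opposite-strand noncoding gene Gm26697, and the strand setting of the counting was not given in the sources used here.

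Both falls kept their direction in each of 18 alternatives, at -0.66 to -0.48 for Fabp1 and -0.51 to -0.37 for Slc27a2, but neither was called at an adjusted p under 0.05. The adjusted p ranged over 0.127 to 0.45 for Fabp1 and 0.0818 to 0.398 for Slc27a2. The call of Fabp1 was lost in edgeR's quasi-likelihood test, with scaling by library totals, and without any of HFD libraries 1 and 3 and HFD/FGFR4 KD libraries 1, 3 and 4. The call of Slc27a2 was lost with scaling by library totals and without any of HFD libraries 2, 3 and 4 and HFD/FGFR4 KD libraries 1, 3 and 4.

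For the genes that had risen with diet, the values in treated and saline HFD mice overlapped. Cd36 was at 174 ± 58.6 CPM in HFD and 100.003 ± 38.4 CPM in HFD/FGFR4 KD (SD, n = 4), a log2 change of -0.84 with a 95% interval of -1.74 to 0.056 (limma-voom adjusted p = 0.494). Without HFD/FGFR4 KD library 1 the change was -0.49, with values of -1.02 to -0.49 over the alternatives. Vldlr was at 6.44 ± 2.90 CPM and 3.90 ± 1.79 CPM, a change of -0.75 (-1.52 to 0.014). The intervals of both reached just past 0 and also hold falls of more than 1 on the log2 scale. Fabp4 changed by -0.44 (-0.995 to 0.12), Fabp2 by -0.37 (-0.94 to 0.20) and Slc27a4 by -0.083 (-0.39 to 0.23), none of which passed. Without HFD/FGFR4 KD library 1 the changes were -0.52 for Vldlr, -0.16 for Fabp4 and -0.24 for Fabp2. Fabp5 had a change of -0.031 with the widest interval of the 10 genes (-1.33 to 1.27), from 23 to 38 counts in HFD and 20 to 31 in HFD/FGFR4 KD, and its sign was positive in edgeR and DESeq2. Dbi changed by -0.036 (-0.30 to 0.22) and Lpl by 0.18 (-0.36 to 0.73). The change of Dbi was 0.018 without HFD/FGFR4 KD library 1.

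Beside these values, no Kupffer, endothelial or stellate marker was called for knockdown on HFD, with stellate sums of 151 to 273 CPM in HFD and 107 to 185 CPM in HFD/FGFR4 KD. Of the adipocyte list, 1 marker was called lower, with sums of 21.9 to 33.3 and 8.78 to 18.1 CPM. Within these sums Cfd was at 10.7 to 24.4 and 3.65 to 8.19 CPM and Cidea at 4.04 to 13.3 and 0 to 6.64 CPM. Adipoq and Plin1 had at most 1 count in any library of the HFD groups. Of 6 hepatocyte markers 1 was called higher and 1 lower. The part of these cells was not tested.

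On chow, knockdown moved none of the 10 genes past the test in limma-voom, edgeR or DESeq2, and none had an unadjusted p under 0.05. Over all genes 0.00883% were called. The groups overlapped for all 10 genes, whereas 2.52% of all genes did not overlap, and the median log2 change was 0.030 beside 0.0041 for all genes. Fabp1 had a change of -0.21 (-0.57 to 0.15) and Slc27a2 one of -0.21 (-0.47 to 0.064). Both intervals hold the changes measured on HFD, so they do not show that treated and saline chow mice were alike for these genes. Cd36 was at 9.65 to 65.3 CPM in Chow and 14.2 to 50.8 CPM in Chow/FGFR4 KD, with a change of 0.0020 (-1.14 to 1.14).

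The difference between the knockdown effects on HFD and on chow was tested as an interaction. None of the 10 genes passed in limma-voom, edgeR or DESeq2, none had an unadjusted p under 0.05 in limma-voom, and 0.0353% of all genes were called. All 10 differences were negative, from -1.01 for Vldlr and -0.85 for Cd36 to -0.038 for Lpl, with a median of -0.29 beside -0.0026 for all genes. The 10 genes come from the same libraries and some varied together, so these signs are not independent. The difference of Cd36 was -0.36 without Chow library 2, -0.55 without Chow/FGFR4 KD library 1 and -0.49 without HFD/FGFR4 KD library 1, and that of Vldlr -0.64 without Chow library 1. Other alternatives gave larger differences, with ranges of -1.24 to -0.36 for Cd36 and -1.31 to -0.64 for Vldlr. For Fabp1 the difference was -0.35 (-0.87 to 0.16) and for Slc27a2 -0.24 (-0.62 to 0.15), so the falls on HFD were not shown to differ from the values on chow. The interaction is also the difference between the diet effects in treated and saline mice, so the larger rises of Cd36 (2.46 against 1.61) and Vldlr (2.12 against 1.11) in saline mice were not shown to differ from those in treated mice. The sign of the interaction turned positive for Fabp2 in 6 of 25 alternatives, among them edgeR and DESeq2. It also turned for Lpl in 5 of 24, for Dbi in 4 of 25 and for Fabp5 in 1 of 24.

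Libraries of one group also differed in ways that members shared. After subtraction of the group means, log2 CPM of the 10 genes gave 45 pairs, of which Fabp1 and Dbi had the highest Pearson r over the 16 libraries, 0.72, and Cd36 and Fabp5 the lowest, -0.61. Points in these correlations share the depth and scaling factor of their library. Fabp1 and Dbi had an r of 0.81 in the 8 chow libraries and 0.73 in the 8 HFD libraries, and 0.66 without the 2 libraries farthest from the median of Fabp1. Cd36 and Fabp5 had an r of -0.67 on chow and -0.41 on HFD, and -0.42 without the 2 libraries farthest from the median of Cd36. Single libraries weighed on the low end: Chow library 2 had the lowest Cd36 of its group, 9.65 CPM, with the highest Fabp5, 25.8 CPM, and Chow library 3 the highest Cd36, 65.3 CPM, with the lowest Fabp5, 6.29 CPM. Chow/FGFR4 KD library 2 likewise had the lowest Cd36 of its group, 14.2 CPM, with the highest Fabp5, 36.1 CPM. Fabp2 went with Fabp1 (0.72), Dbi (0.69) and Cd36 (0.68), and Slc27a2 went against Cd36 (-0.52).

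**Figure D4:**
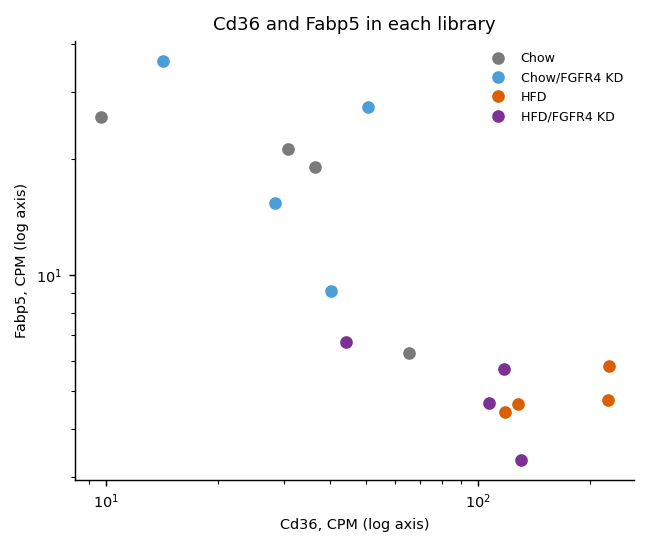
Cd36 (horizontal) against Fabp5 (vertical), both in CPM on log axes, 1 point per library. HFD libraries lie at high Cd36 and low Fabp5 except HFD/FGFR4 KD library 1, which lies among the chow libraries for Cd36, and within the Chow group Chow library 2 (9.65 and 25.8 CPM) and Chow library 3 (65.3 and 6.29 CPM) mark the ends.

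The genes whose deviations from the group means were most like those of each member were found by Pearson r of log2 CPM over the 16 libraries, among 6693 genes of at least 10 CPM on average. For Fabp1 they were Acadl (0.90), Hadhb (0.86) and Vnn1 (0.85), and for Slc27a2 Fam173b (0.84), Eif4b (0.84) and Ing4 (0.83). Cd36 was most like Med22 (0.93), Slc25a10 (0.93) and Tor2a (0.90), and Fabp2 most like Mrpl12 (0.97) and Paqr7 (0.91). Without HFD/FGFR4 KD library 1 the values of Cd36 and its 3 genes were 0.92, 0.91 and 0.88. Fabp4 was most like Mapre3 (0.92), Akap2 (0.91) and Arf3 (0.90), Vldlr most like Degs1 (0.87), Mgat4b (0.86) and Tmem94 (0.85), and Dbi most like Fam114a1 (0.91), Tpi1 (0.89) and Pgrmc2 (0.88). Slc27a4 had Capzb (0.90), Cdc42bpa (0.86) and Tnfaip1 (0.86), Fabp5 had Prr14 (0.83), Ift52 (0.82) and Ercc6l2 (0.80), and Lpl had Cln8 (0.85), Yipf4 (0.81) and Pbrm1 (0.81). The highest of many correlations is high by selection, and the 99th percentile over the candidate genes ran from 0.62 for Lpl to 0.79 for Fabp2.

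Of 43 other genes of these pathways, 35 were tested. On HFD in saline mice 6 of the 35 were called higher, against 13.3% of all genes, and 5 lower, against 12.7%. The median log2 change of the 35 genes was -0.053 beside 0.0070 for all genes. The 4 other cytosolic FABPs (Fabp3, Fabp6, Fabp7 and Fabp12) were all below the filter. Among partners and relatives of lipoprotein lipase, Lipg, endothelial lipase, increased by 0.99 ± 0.17 (SE) on the log2 scale (limma-voom adjusted p = 0.00207) and Apoc2, the activator of the lipase, by 1.23 ± 0.34 (SE) (limma-voom adjusted p = 0.031), while Angptl4, its inhibitor, fell by 0.80 ± 0.16 (SE) (limma-voom adjusted p = 0.0063). Hepatic lipase, Lipc, fell by 0.38. Of the nuclear receptors known to act on these genes, Ppara had a higher level by 0.61 ± 0.14 (SE) (limma-voom adjusted p = 0.0119) and Pparg by 1.05 ± 0.35 (SE) (limma-voom adjusted p = 0.0719), and Hnf4a fell by 0.44. Got2, known also as a plasma membrane fatty acid binding protein, rose by 0.34, while the acyl-CoA synthetase Acsl4 fell by 0.61 and the bile acid-activating Slc27a5 by 0.23, the last with a positive sign under scaling by library totals. The call of Hnf4a was lost in 5 of 18 alternatives, with scaling by library totals (-0.16) and without Chow library 1 or 2 or HFD library 1 or 3 (-0.32 to -0.39).

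In treated mice 6 of the 35 genes were called higher on HFD, against 10.1% of all genes, and 1 lower, against 10.1%. The median was 0.046 beside -0.0088. Lipg (1.57), Apoc2 (1.31) and Ppara (0.65) rose and Angptl4 fell by 0.51, as in saline mice. Lrpap1, a chaperone of lipoprotein receptors, rose by 0.29 and Scarb1, the HDL receptor, by 0.29. The call of Lrpap1 was lost without a filter on low genes and without Chow/FGFR4 KD library 2 or HFD/FGFR4 KD library 3 or 4 (0.21 to 0.27), and that of Scarb1 in 11 of 18 alternatives, among them the removal of Chow/FGFR4 KD library 1, 3 or 4 or HFD/FGFR4 KD library 1, 3 or 4 (0.20 to 0.32).

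Knockdown on HFD left 32 of the 35 genes uncalled, with 2 higher, against 1.5% of all genes, and 1 lower, against 1.64%. The median was 0.016 beside 0.0035. Acsl3, an acyl-CoA synthetase of lipid droplets, rose by 1.04 ± 0.29 (SE) (limma-voom adjusted p = 0.177), from 19.1 to 36.7 CPM. Angptl8, an inhibitor of lipoprotein lipase, rose by 0.99 ± 0.32 (SE) (limma-voom adjusted p = 0.228). Both overlapped between the groups. Got2 fell by 0.26 ± 0.070 (SE), without overlap (limma-voom adjusted p = 0.166). The call of Acsl3 was lost in 5 of 18 alternatives, among them the removal of HFD library 4 or HFD/FGFR4 KD library 3 or 4 (0.90 to 1.01), that of Angptl8 in 10 of 18, among them the replicate block, no filter on low genes and the removal of HFD library 1, 3 or 4 or HFD/FGFR4 KD library 1, 3 or 4 (0.77 to 1.06), and that of Got2 in 6 of 18, among them the removal of HFD library 1 or 3 or HFD/FGFR4 KD library 1 or 3 (-0.26 to -0.23). Pparg had a change of -0.76 that did not pass (limma-voom adjusted p = 0.393) and Ppara one of -0.26 (-0.54 to 0.030). Knockdown on chow and the interaction gave no call among the 35 genes, against 0.00883% and 0.0353% of all genes. Their medians were -0.092 and 0.15, with 3 and 4 genes at an unadjusted p under 0.05 in limma-voom.

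**Figure D5:**
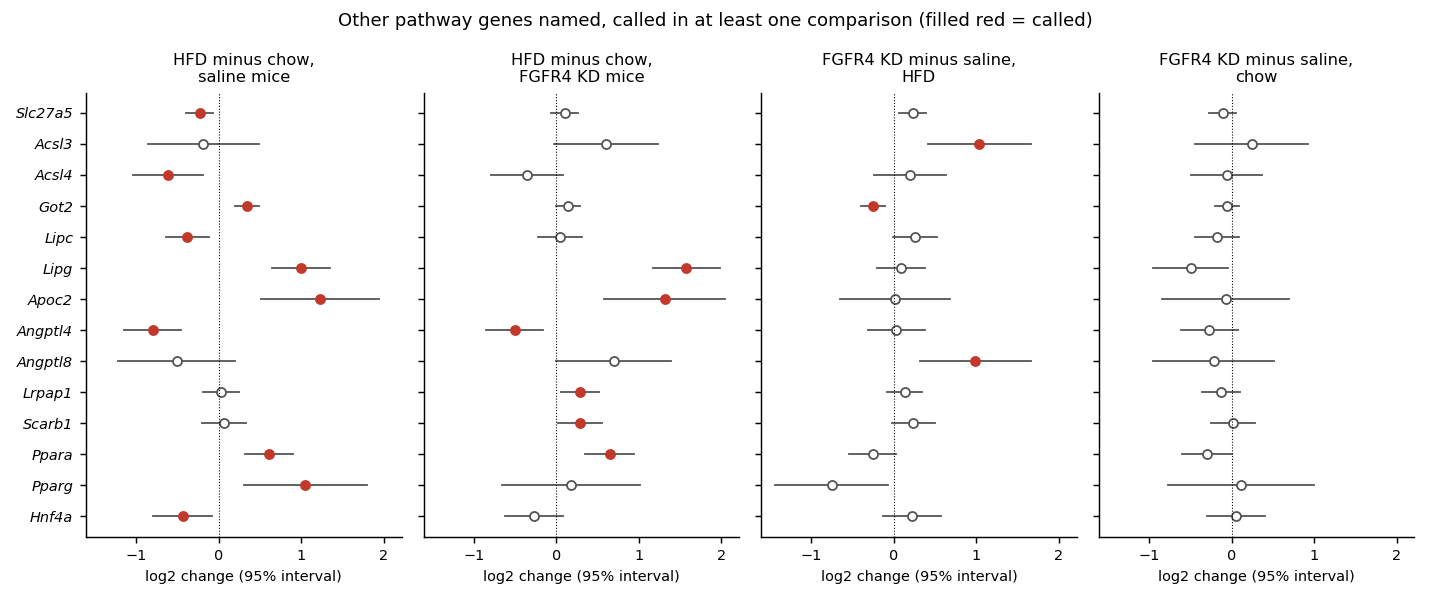
Log2 change (horizontal axis) with its 95% interval from limma-voom for the other pathway genes named, each called in at least 1 comparison, filled red where called. Lipg, Apoc2 and Ppara are filled to the right and Angptl4 to the left in both diet comparisons, and Acsl3, Angptl8 and Got2 are filled for knockdown on HFD.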

How the data were processed

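RNA from 16 mouse livers was sequenced, 4 libraries for each of the 4 groups that the labels name. The authors used kallisto for pseudoalignment and tximport to add transcripts up to genes, as the paper's methods state, so the deposited values are expected counts (estimated counts, not scaled), of which 7.85% to 11.1% per library were not whole numbers. The transcriptome release is not given in the sources used here. The table held 52143 genes, 27199 of them at 0 in all libraries, and GENCODE symbols were found for 98.3%. The labels number the libraries, and the paper describes each as 1 mouse.

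A gene was dropped where over 4 libraries had less than 1 CPM, and 11324 genes stayed. TMM factors (edgeR 4.0.16) and limma-voom (limma 3.58.1, R 4.3.3) with a mean for each group were applied to all 16 libraries, and 5 comparisons were drawn from it: siRNA against saline on each diet, HFD against chow under each treatment, and their interaction. The fit was tested on simulated data. Calls used the cutoffs of the paper, 0.05 for p and 0.25 for p adjusted by Benjamini-Hochberg. A change rests on log2 of counts plus 0.5, so changes of low genes such as Vldlr are understated. Lengths are those of the longest coding GENCODE M21 transcript on GRCm38, and promoter windows of 250 bases come from RefSeq on GRCm38.p6. Motifs and annotation were read with Python 3.11.15 and pandas 2.3.3.

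The text names all 10 genes, pathway genes called in a comparison (at most 6 a direction by the smallest p), the 3 genes most like each member, and Fgfr4, except for genes that are not reported here. The members and gene lists were chosen with earlier results of these data known. No 2 libraries of a group agreed within sampling noise (chi-square per degree of freedom of 7.59 or more). The results were recomputed with edgeR's quasi-likelihood test, with DESeq2 1.42.0 on rounded counts, with other filters, scalings and weights, with a replicate block, with only the groups compared, and without each library.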

Additional observations from a re-analysis of the deposited data

Results flagged for a closer look

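Within groups of 4 libraries, single values that lay far from the other 3 were sought with Dixon's test at its 95% level, over 100 groups of the 10 genes and of the 15 other pathway genes called in a comparison. It marked 7 values, and chance marks about 5% of groups. Among the members, Dbi was at 603.8 CPM in Chow library 3 against at most 514 CPM in the others, and at 648.8 CPM in Chow/FGFR4 KD library 1 against at most 512 CPM. Fabp1 was at 2413 CPM in HFD library 4 against at least 2818 CPM in the other HFD libraries. Fabp4 was at 2.87 CPM in Chow library 2, from 11 counts, against at least 3.65 CPM. Slc27a4 was at 32.13 CPM in HFD/FGFR4 KD library 4, where the other 3 libraries lay within 31.2 CPM to 3 digits, so this gap was small in size. Of the other genes, Lipg was at 23.15 CPM in HFD library 3 against at most 17.6 CPM, and Pparg at 10.29 CPM in HFD/FGFR4 KD library 3 against at most 6.50 CPM. No difference between the knockdown effects on the diets passed the test for the genes named.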

How the results depend on the processing

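The 5 counts of called members and the 71 single changes were recomputed under 27 settings, which gave 1446 values, and 1297 kept their direction and their side of the threshold. For KD on HFD (2 members called) the count was 0 at an adjusted p under 0.05, 1 in edgeR, 0 with scaling by library totals and 0 to 2 with a library left out. For HFD in saline mice (5 called) it was 8 with scaling by library totals, where 92.1% of all calls were higher instead of 51.2%. For HFD in KD mice (5 called) it was 2 at an adjusted p under 0.05 and 3 to 5 with a library left out, and calls of all genes were 82.8% higher under library totals, against 50.1%. The numbers of the libraries were not used as pairs: r between deviations of same-numbered libraries was -0.26 to 0.22. In 1 of 16 comparisons of a library with the libraries of another group, the same-numbered one correlated best. With a replicate block the members called stayed at 2, 0, 5, 5 and 0, and KD on HFD had 259 calls over all genes against 356.

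Changes whose sign turned were uncalled, except Slc27a5 on HFD in saline mice (0.048 with library totals). With library totals, under which the median of all genes was 0.29 for HFD in saline mice, 0.14 for HFD in KD mice and -0.13 for the interaction, Dbi (0.24) and Lpl (0.0074) turned in saline mice and Slc27a2 (0.052), Fabp1 (0.11) and Dbi (0.076) in KD mice. For KD on HFD, Fabp5 was 0.026 in edgeR, 0.041 in DESeq2 and 0.13 with the replicate block. For KD on chow, Cd36 was -0.10 in edgeR, -0.098 in DESeq2, -0.0066 with upper quartile scaling, -0.0046 without Gm42418 and Lars2 and -0.025 with the replicate block, and Dbi -0.0057 with upper quartile scaling. Dbi was 0.015 with library weights on HFD in saline mice, and Fabp2 0.00086 in edgeR and 0.010 in DESeq2 for the interaction. With a library left out, KD on HFD ranged over -0.18 to 0.022 for Slc27a4, -0.19 to 0.21 for Fabp5 and -0.11 to 0.043 for Dbi. KD on chow ranged over -0.48 to 0.39 for Cd36, -0.040 to 0.18 for Slc27a4, -0.51 to 0.057 for Fabp2, -0.090 to 0.70 for Fabp5, -0.082 to 0.072 for Dbi, -0.019 to 0.40 for Lpl and -0.11 to 0.56 for Vldlr. Dbi on HFD in saline mice ranged over -0.12 to 0.038, and in KD mice Slc27a2 over -0.20 to 0.017 and Fabp1 over -0.22 to 0.11. The interaction ranged over -0.43 to 0.14 for Fabp2, -0.73 to 0.059 for Fabp5, -0.12 to 0.044 for Dbi and -0.21 to 0.20 for Lpl. The cause of these moves was not tested. Calls over all genes for KD on HFD ran from 114 (library totals) to 776 (library weights) with all libraries and from 89 to 605 with a library left out, and DESeq2 called 54 for the interaction against 4. Depth limits Vldlr (3 to 67 counts a library), Fabp4 and Fabp5 most.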
